A study of Mus musculus with 6 samples.

Results

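Interferon-stimulated genes are the genes that cells switch on in answer to interferons, and 46 of them were looked up by gene symbol in the RNA-sequencing counts of mouse AML cells with and without deletion of *Phf6*. The 46 symbols are each present once among the 54532 genes of the table, and all 46 had enough counts to be among the 14169 genes tested. GFP+ leukemia cells were sorted from bone marrow of mice that carried leukemia driven by RUNX1-ETO9a (RE9a), a short form of the t(8;21) fusion protein that was delivered with GFP by a retrovirus to fetal liver cells. The 3 *WT Phf6,RE9a* libraries (replicates 1, 2 and 3) come from *Phf6 fl/y* cells with a working floxed allele of *Phf6*, an X-linked gene. The 3 *VC Phf6,RE9a* libraries (replicates 11, 12 and 13) come from *Vav1-Cre;Phf6 fl/y* cells, in which a Cre expressed throughout the blood system deletes the allele. Both groups carry the floxed allele, RE9a and GFP, and only the *VC Phf6,RE9a* group carries Cre, so Cre itself and the deletion cannot be told apart. The study's methods describe its mice as young adult males. The number of leukemias behind each group is not stated in the labels, so p-values measure the spread between these libraries, which may be technical.

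Type I interferons bind the receptor IFNAR1-IFNAR2, and type II interferon binds IFNGR1-IFNGR2. The JAK kinases on these receptors phosphorylate STAT proteins, which enter the nucleus, with IRF9 in the type I response, and bind the interferon-stimulated response element or the gamma-activated site near their target genes. The products of these genes sense viral RNA and DNA, block translation, degrade RNA, modify proteins with ISG15 or attack the vacuoles of parasites. In blood-forming cells interferon signaling is also known to move quiescent stem cells into cycle, and interferon alpha has been used to treat myeloid neoplasms.

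Total counts ran from 15675358 to 16817994 per library. Levels are given as CPM, counts scaled to a common library size with TMM factors. A count of 0 allows up to 3 counts, or 0.175 to 0.204 CPM in these libraries, for counting error only. *Phf6* itself was lower in *VC Phf6,RE9a* cells, at 20.3 ± 2.37 against 64.3 ± 7.16 CPM (SD, n = 3), or -1.66 as a log2 fold change (standard error 0.13, adjusted p = 9.32e-05 by edgeR). Among markers of the myeloid blast, *Kit*, *Cd34* and *Fcgr3* were lower in *VC Phf6,RE9a* cells, *Mpo*, *Elane* and *Itgam* were higher and *Ptprc* did not pass the threshold, and all 7 were read in both groups. All 8 neutrophil markers were higher in *VC Phf6,RE9a* cells, with summed levels of 910 to 3476 against 144 to 443 CPM. Of 6 tested B cell markers 5 were higher, with summed levels of 26.0 to 72.4 against 4.48 to 10.2 CPM. All 6 erythroid markers were higher too (4409 to 4961 against 1415 to 2129 CPM). Mast cell and basophil markers went down (6 of 7 lower, summed levels of 2236 to 2825 against 10150 to 13780 CPM). Of 4 tested markers of plasmacytoid dendritic cells, the main makers of type I interferon, *Tcf4* and *Ly6d* were higher and *Siglech* and *Ccr9* did not pass. The summed level of that list was 39.6 to 54.8 against 4.35 to 8.66 CPM, and without *Tcf4*, a gene that other cells also use, 6.18 to 11.6 against 3.64 to 6.29 CPM. Of 11 monocyte and macrophage markers 3 were higher and 1 lower, and of 12 T and NK cell markers 3 had enough counts, of which 2 were higher and 1 lower. The part of these cell types in the results below was not tested. In bulk RNA, more cells of a type and more RNA per cell cannot be told apart.

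Most interferon-stimulated genes rose with deletion of *Phf6*. At an adjusted p under 0.05 from edgeR's quasi-likelihood test over all genes, 33 of the 46 were higher in *VC Phf6,RE9a* cells, 2 were lower and 11 did not pass. The share that was higher was 71.7%, where 21.5% of all genes tested were higher, 22.7% lower and 44.2% either. The median log2 fold change was 1.52 over the 46 genes and 0.013 over all genes tested. A called rise of at least 2-fold was seen in 31 of the 46 genes (67.4%), where 9.95% of all genes tested rose that far. Of the genes called higher, *Ifit3*, *Zbp1*, *Ifi44*, *Rsad2*, *Cmpk2* and *Mx2* passed the count filter through the *VC Phf6,RE9a* libraries. Each had under 10 counts in at least 1 *WT Phf6,RE9a* library. With at least 10 counts required in every library, 27 of 39 genes tested were higher and 1 was lower. Over all genes 2565 were then higher and 2717 lower. The number of all genes tested under this filter is not given here, so shares cannot be compared. Every *VC Phf6,RE9a* library lay above every *WT Phf6,RE9a* library for 37 genes, or 80.4%, where this held for 28.9% of all genes tested, and below every *WT Phf6,RE9a* library for 2 genes, where this held for 28.4%. The summed level of the 46 genes was 1186 to 2117 CPM in *WT Phf6,RE9a* and 3593 to 3899 CPM in *VC Phf6,RE9a* libraries. Scaling by total counts alone, which shifted the median of all genes from 0.013 to 0.16 and the calls over all genes from 3047 higher and 3213 lower to 4048 and 2474, gave 36 of the 46 genes higher and 1 lower and turned no member's direction.

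**Figure D1:**
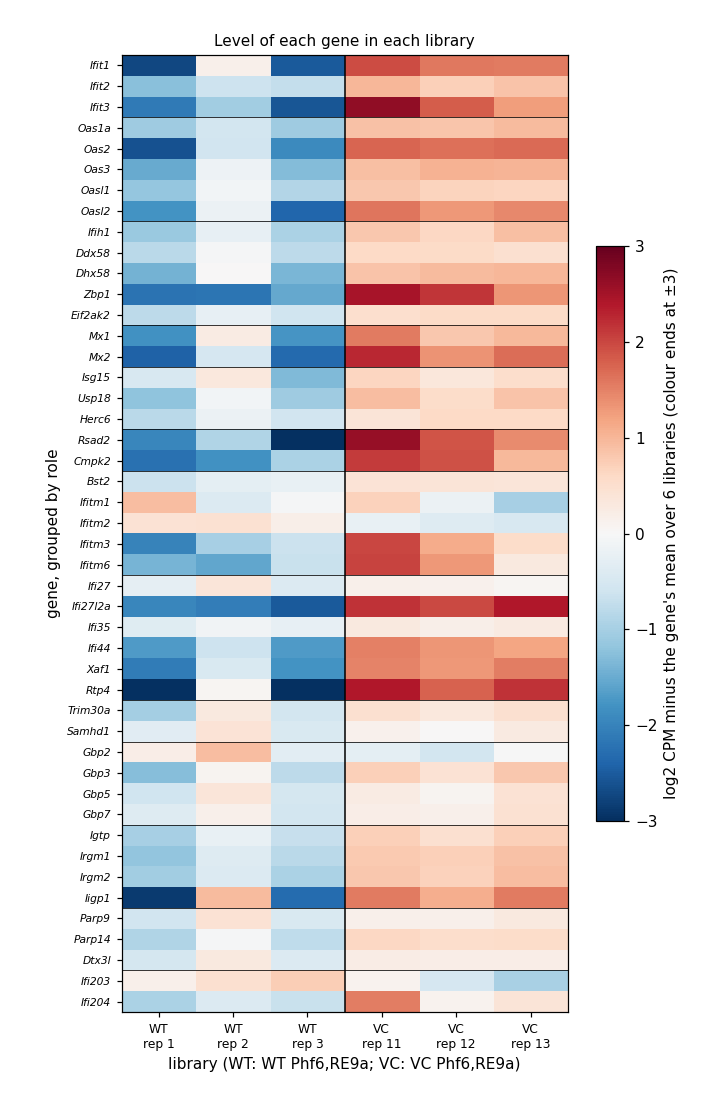
Level of each of the 46 genes in each library, as log2 CPM (prior count 2) minus the gene's mean over the 6 libraries, with lines between role groups. For most genes the 3 VC columns are red and the columns of WT replicates 1 and 3 blue, and *Ifitm1*, *Ifitm2*, *Gbp2* and *Ifi203* run against this pattern. WT replicate 2 is the palest WT column (median -0.156, against -1.14 and -0.797 for replicates 1 and 3) and is red for part of the genes. For *Samhd1*, *Ifi27*, *Parp9* and *Dtx3l* it lies above every VC library.

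**Figure D2:**
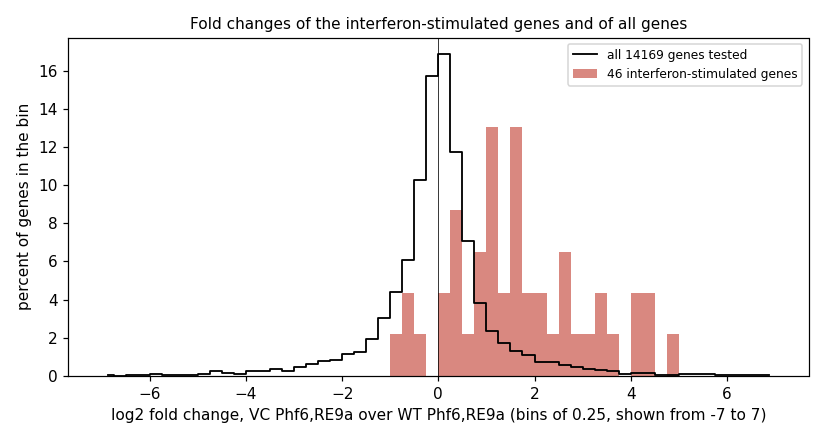
Distribution of the log2 fold change, VC Phf6,RE9a over WT Phf6,RE9a, in bins of 0.25, for the 46 interferon-stimulated genes (bars) and all 14169 genes tested (line), each as a percent of its own number. The line is centered near 0, while the bars are mostly to the right of it, with a median of 1.52, and none lies below -0.87 or above 4.95.

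RefSeq promoters of GRCm38.p6, from 250 bases before to 50 after an annotated start, were matched for 33 of the 46 genes (37 promoters, since 4 genes have several starts) and were searched on both strands for GAAA followed after any 2 bases by GAAA, the core of the interferon-stimulated response element, and for TTCNNNGAA, the gamma-activated site. No entry was matched for *Oas2*, *Dhx58*, *Zbp1*, *Mx1*, *Mx2*, *Usp18*, *Ifi27*, *Ifi27l2a*, *Rtp4*, *Iigp1*, *Parp9*, *Parp14* and *Ifi204*. The response element core was found in 21 of the 33 (63.6%), 8 of them with at least 2 matches that can overlap, where 3.44% of all 32851 promoters of this length held it. The gamma-activated site was found in 12 (36.4%), against 8.3% of all promoters. A listed gene with several starts counted when any of them held the match, while the shares over all were per promoter. The 21 genes with the core had a median log2 fold change of 1.23 (14 higher, 2 lower, 5 not passing) and the 12 genes without it one of 1.53 (9 higher, 3 not passing). A match is a description of letters and not a shown binding site. The promoters of 6 genes are printed 5′ to 3′ on the strand of the gene, because they hold the core in genes that rose (*Ifit1*, *Ifit3*, *Oas1a*, *Ifitm3*), in the gene with the most matches (*Isg15*) and in a gene that fell (*Ifitm2*). Capitals mark the core on either strand, and runs longer than 10 capitals are overlapping matches.
Ifit1: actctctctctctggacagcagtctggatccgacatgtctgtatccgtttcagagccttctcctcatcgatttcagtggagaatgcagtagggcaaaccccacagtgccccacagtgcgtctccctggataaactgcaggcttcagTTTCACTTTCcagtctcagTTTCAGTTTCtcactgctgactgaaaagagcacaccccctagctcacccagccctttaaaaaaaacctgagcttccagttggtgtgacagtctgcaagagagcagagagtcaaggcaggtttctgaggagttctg
Ifit3: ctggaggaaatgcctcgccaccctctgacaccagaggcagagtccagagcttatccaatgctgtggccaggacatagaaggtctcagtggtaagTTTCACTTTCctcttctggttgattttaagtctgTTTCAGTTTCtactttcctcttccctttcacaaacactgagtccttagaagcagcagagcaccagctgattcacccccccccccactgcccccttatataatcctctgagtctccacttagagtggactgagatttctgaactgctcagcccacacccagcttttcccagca
Oas1a: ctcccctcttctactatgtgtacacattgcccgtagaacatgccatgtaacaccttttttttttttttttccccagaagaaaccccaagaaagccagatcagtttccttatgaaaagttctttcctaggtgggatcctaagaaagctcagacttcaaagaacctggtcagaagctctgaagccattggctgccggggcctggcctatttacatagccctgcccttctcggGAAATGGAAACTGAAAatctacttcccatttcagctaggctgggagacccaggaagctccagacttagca
Isg15: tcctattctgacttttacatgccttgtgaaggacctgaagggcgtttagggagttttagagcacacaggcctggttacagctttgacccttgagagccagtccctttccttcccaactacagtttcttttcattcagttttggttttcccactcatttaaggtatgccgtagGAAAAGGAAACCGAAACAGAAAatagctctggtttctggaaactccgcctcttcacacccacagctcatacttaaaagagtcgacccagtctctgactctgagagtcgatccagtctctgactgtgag
Ifitm3: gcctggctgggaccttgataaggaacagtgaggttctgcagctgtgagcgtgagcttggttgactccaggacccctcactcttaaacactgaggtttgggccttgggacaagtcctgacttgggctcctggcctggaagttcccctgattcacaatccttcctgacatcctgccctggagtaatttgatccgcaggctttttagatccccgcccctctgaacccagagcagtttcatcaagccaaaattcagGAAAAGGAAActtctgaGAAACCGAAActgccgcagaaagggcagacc
Ifitm2: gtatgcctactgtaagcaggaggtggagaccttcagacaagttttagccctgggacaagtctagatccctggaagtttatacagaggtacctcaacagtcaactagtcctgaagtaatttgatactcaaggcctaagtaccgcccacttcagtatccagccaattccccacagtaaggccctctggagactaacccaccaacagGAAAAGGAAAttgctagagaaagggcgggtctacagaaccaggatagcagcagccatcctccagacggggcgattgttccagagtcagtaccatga
They lie at chr19:34640639-34640938 (+) for *Ifit1*, chr19:34583279-34583578 (+) for *Ifit3*, chr5:120907476-120907775 (-) for *Oas1a*, chr4:156200769-156201068 (-) for *Isg15*, chr7:141010695-141010994 (-) for *Ifitm3* and chr7:140955912-140956211 (-) for *Ifitm2*. *Isg15* held 3 overlapping matches, and *Ifit1*, *Ifit3*, *Oas1a* and *Ifitm3* held 2 each. The same 10 letters, GAAAAGGAAA, stand in the promoters of *Ifitm2*, *Ifitm3* and *Isg15*.

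The IFIT proteins bind foreign RNA ends and block its translation. All 3 were higher in *VC Phf6,RE9a* cells. *Ifit2* (chromosome 19, 34550694 to 34576419) had 11.4, 17.6 and 16.5 CPM in *WT Phf6,RE9a* libraries and 54.7, 45.1 and 49.7 CPM in *VC Phf6,RE9a* libraries. The groups were well apart (log2 fold change 1.72, standard error 0.18, adjusted p = 0.000278). *Ifit3* went from 2, 6 and 1 counts to 116, 64 and 42 counts, a ratio of 22.6 with an exact 95% interval of 11.7 to 50.1 for counting error alone (log2 fold change 4.43, standard error 0.65, adjusted p = 0.00142). Reads of *Ifit3* are uncertain, since 31.7% of the 100-base windows of its transcript also occur in *Ifit3b*. *Ifit1*, whose protein recognizes RNA lacking the cap methylation of host messages, had 1.23, 9.91 and 1.45 CPM in *WT Phf6,RE9a* libraries, where replicate 2 stood out, and 34.7, 26.9 and 26.7 CPM in *VC Phf6,RE9a* libraries. Its log2 fold change was 2.82 (standard error 0.70, adjusted p = 0.0135), and 4.43 without *WT Phf6,RE9a* replicate 2.

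The OAS enzymes make the 2′-5′ oligoadenylates that activate RNase L, and all 5 listed members were higher, with log2 fold changes from 1.34 for *Oasl1* to 3.15 for *Oas2*. *Oas2* (chromosome 5, 120730333 to 120749853) had 30.4, 126 and 50.1 CPM in *WT Phf6,RE9a* libraries and 627, 590 and 608 CPM in *VC Phf6,RE9a* libraries. Replicate 2 was again the highest *WT Phf6,RE9a* library, and still lay far under the *VC Phf6,RE9a* libraries (standard error 0.47, adjusted p = 0.00154). *Oas1a* had 35.1, 50.8 and 35.5 CPM in *WT Phf6,RE9a* and 138, 133 and 144 CPM in *VC Phf6,RE9a* libraries. Its log2 fold change of 1.77 had a small error (0.15, adjusted p = 0.000132), but 40.9% of its transcript windows are shared with *Oas1g*, its neighbour. *Oas3* rose by 1.85 and *Oasl2* rose by 2.60 on the log2 scale. *Oasl1*, which lacks this enzyme activity and is known to limit translation of *Irf7*, showed the smallest rise of these 5.

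All 5 genes of nucleic acid sensors were higher. *Ddx58*, which encodes RIG-I, went from 41.9, 71.9 and 42.5 CPM to 111, 110 and 103 CPM, with every *VC Phf6,RE9a* library above every *WT Phf6,RE9a* library (log2 fold change 1.05, standard error 0.20, adjusted p = 0.00476). *Eif2ak2*, the gene of the translation-blocking kinase PKR, had 36.8, 53.5 and 41.6 CPM in *WT Phf6,RE9a* and 89.6, 94.2 and 94.6 CPM in *VC Phf6,RE9a* libraries (log2 fold change 1.08, standard error 0.14, adjusted p = 0.000728). The *VC Phf6,RE9a* libraries were close to each other for both genes. *Ifih1*, encoding MDA5, rose by 1.51 and *Dhx58*, encoding LGP2, rose by 1.70 on the log2 scale. *Zbp1*, a sensor of Z-form nucleic acids that can start necroptosis, was not above the limit of 3 counts in any *WT Phf6,RE9a* library, with 1, 1 and 3 counts, and had 81, 64 and 35 counts in *VC Phf6,RE9a* libraries. The ratio was 33 with an exact 95% interval of 13.9 to 103 for counting error alone (adjusted p = 0.000407), the largest fitted change among the 46 genes (log2 fold change 4.95, standard error 0.55). The log2 fold change of *Zbp1* was 5.57 without *WT Phf6,RE9a* replicate 3.

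MX proteins are GTPases that trap viral nucleoproteins, but *Mx2* is annotated as a polymorphic pseudogene in the deposited data. Both MX genes were low, and were higher in *VC Phf6,RE9a* cells. *Mx2* had 0.454, 2.04 and 0.484 CPM in *WT Phf6,RE9a* and 14.6, 7.69 and 9.68 CPM in *VC Phf6,RE9a* libraries (log2 fold change 3.44, standard error 0.57, adjusted p = 0.00250). *Mx1* had 0.649, 3.05 and 0.666 CPM in *WT Phf6,RE9a* and 7.85, 4.60 and 5.17 CPM in *VC Phf6,RE9a* libraries (log2 fold change 2.02, standard error 0.60, adjusted p = 0.0272). The *WT Phf6,RE9a* value was set mostly by replicate 2 in both genes. *Mx1* no longer passed without *WT Phf6,RE9a* replicate 1 (adjusted p = 0.0749), without *WT Phf6,RE9a* replicate 3 (0.0700) or without *VC Phf6,RE9a* replicate 11 (0.0857).

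ISG15 is a ubiquitin-like protein that is joined to other proteins by HERC6 in the mouse and removed by USP18, which also blocks the type I receptor. *Isg15* had 39.9, 69.5 and 22.0 CPM in *WT Phf6,RE9a* and 86.3, 69.9 and 79.8 CPM in *VC Phf6,RE9a* libraries. The groups were separated only narrowly and the change did not pass (log2 fold change 0.85, standard error 0.35, adjusted p = 0.0861). *Usp18* had 14.7, 32.4 and 16.2 CPM in *WT Phf6,RE9a* and 64.7, 49.6 and 62.0 CPM in *VC Phf6,RE9a* libraries (log2 fold change 1.48, standard error 0.29, adjusted p = 0.00505). *Herc6* had 21.9, 34.1 and 25.8 CPM in *WT Phf6,RE9a* and 51.1, 58.4 and 58.7 CPM in *VC Phf6,RE9a* libraries (log2 fold change 1.04, standard error 0.16, adjusted p = 0.00194). Both were higher in every *VC Phf6,RE9a* library, and 20.9% of the windows of *Herc6* are shared with the overlapping transcript *Gm45193*.

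*Rsad2* and *Cmpk2* are neighbours on chromosome 12 within 37092 bases. Viperin, the product of *Rsad2*, turns CTP into a chain terminator, and CMPK2 makes CTP in mitochondria. *Rsad2* had 0.519, 1.22 and 0.182 CPM in *WT Phf6,RE9a* and 15.2, 9.15 and 6.54 CPM in *VC Phf6,RE9a* libraries (log2 fold change 4.01, standard error 0.60, adjusted p = 0.00149). *Cmpk2* had 0.325, 0.475 and 0.968 CPM in *WT Phf6,RE9a* and 8.92, 7.81 and 3.98 CPM in *VC Phf6,RE9a* libraries (log2 fold change 3.52, standard error 0.49, adjusted p = 0.00105). Neither gene exceeded 1.22 CPM in a *WT Phf6,RE9a* library, and in both *VC Phf6,RE9a* replicate 11 was the highest and replicate 13 the lowest of its group.

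The membrane proteins went both ways. *Bst2*, encoding tetherin, which holds budding virus at the cell surface, had 38.8, 50.1 and 52.0 CPM in *WT Phf6,RE9a* and 81.2, 79.5 and 78.7 CPM in *VC Phf6,RE9a* libraries (log2 fold change 0.77, standard error 0.12, adjusted p = 0.00184). *Ifitm2* (chromosome 7, 140954837 to 140955987), whose product blocks fusion of virus with endosomes, was lower, at 57.1, 58.4 and 48.3 CPM against 36.4, 32.6 and 30.5 CPM (log2 fold change -0.72, standard error 0.11, adjusted p = 0.00206). The groups did not overlap for either gene. A share of 40.9% of the exonic bases of *Ifitm2* also belongs to the gene *Gm45717* on the same strand. Its neighbours *Ifitm3* and *Ifitm6*, described after their values were seen, were higher in *VC Phf6,RE9a* cells. *Ifitm3* had 1.82, 3.80 and 4.84 CPM in *WT Phf6,RE9a* and 31.2, 16.7 and 11.3 CPM in *VC Phf6,RE9a* libraries (log2 fold change 2.50, standard error 0.47, adjusted p = 0.00410). *Ifitm6* had 3.70, 3.26 and 6.23 CPM in *WT Phf6,RE9a* and 40.9, 24.5 and 12.1 CPM in *VC Phf6,RE9a* libraries (log2 fold change 2.55, standard error 0.46, adjusted p = 0.00355). *Ifitm1* ranged from 4.07 to 10.4 CPM in *WT Phf6,RE9a* and from 2.67 to 8.80 CPM in *VC Phf6,RE9a* libraries and did not pass (log2 fold change -0.28, standard error 0.49, adjusted p = 0.679).

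*Ifi27l2a* (chromosome 12, 103442167 to 103443680), which encodes a small mitochondrial protein, showed the smallest p-value of all 46 genes. It had 18.8, 17.2 and 12.7 CPM in *WT Phf6,RE9a* and 327, 289 and 390.5 CPM in *VC Phf6,RE9a* libraries. The *VC Phf6,RE9a* libraries lay far above all others (log2 fold change 4.37, standard error 0.19, adjusted p = 1.92e-05). Its neighbour *Ifi27* ranged from 56.2 to 96.1 CPM in *WT Phf6,RE9a* and from 77.9 to 83.3 CPM in *VC Phf6,RE9a* libraries, and the groups overlapped (log2 fold change 0.18, adjusted p = 0.480). *Xaf1*, which encodes an antagonist of the apoptosis inhibitor XIAP, had 7.53, 23.8 and 9.32 CPM in *WT Phf6,RE9a* and 90.9, 80.8 and 95.1 CPM in *VC Phf6,RE9a* libraries (log2 fold change 2.72, standard error 0.39, adjusted p = 0.00125). *Rtp4*, a regulator of the interferon response, rose by 3.45 on the log2 scale. *Ifi44* went from 0, 2 and 0 counts to 17, 15 and 13 counts (adjusted p = 0.00435, ratio 20.6, exact 95% interval 5.39 to 175 for counting error alone). *Ifi35* rose by 0.48 on the log2 scale, the smallest change among the 33 genes that were higher.

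*Samhd1*, which encodes a hydrolase of deoxynucleotides that is known to lower the response of AML cells to cytarabine, had 168, 284 and 155 CPM in *WT Phf6,RE9a* and 234, 217 and 259 CPM in *VC Phf6,RE9a* libraries. The groups overlapped and the change did not pass (log2 fold change 0.23, standard error 0.22, adjusted p = 0.443). *Trim30a*, whose product restrains NF-κB signaling downstream of Toll-like receptors, ranged from 44.3 to 111 CPM in *WT Phf6,RE9a* and from 113 to 127 CPM in *VC Phf6,RE9a* libraries (log2 fold change 0.76, standard error 0.29, adjusted p = 0.0681).

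**Figure D3:**
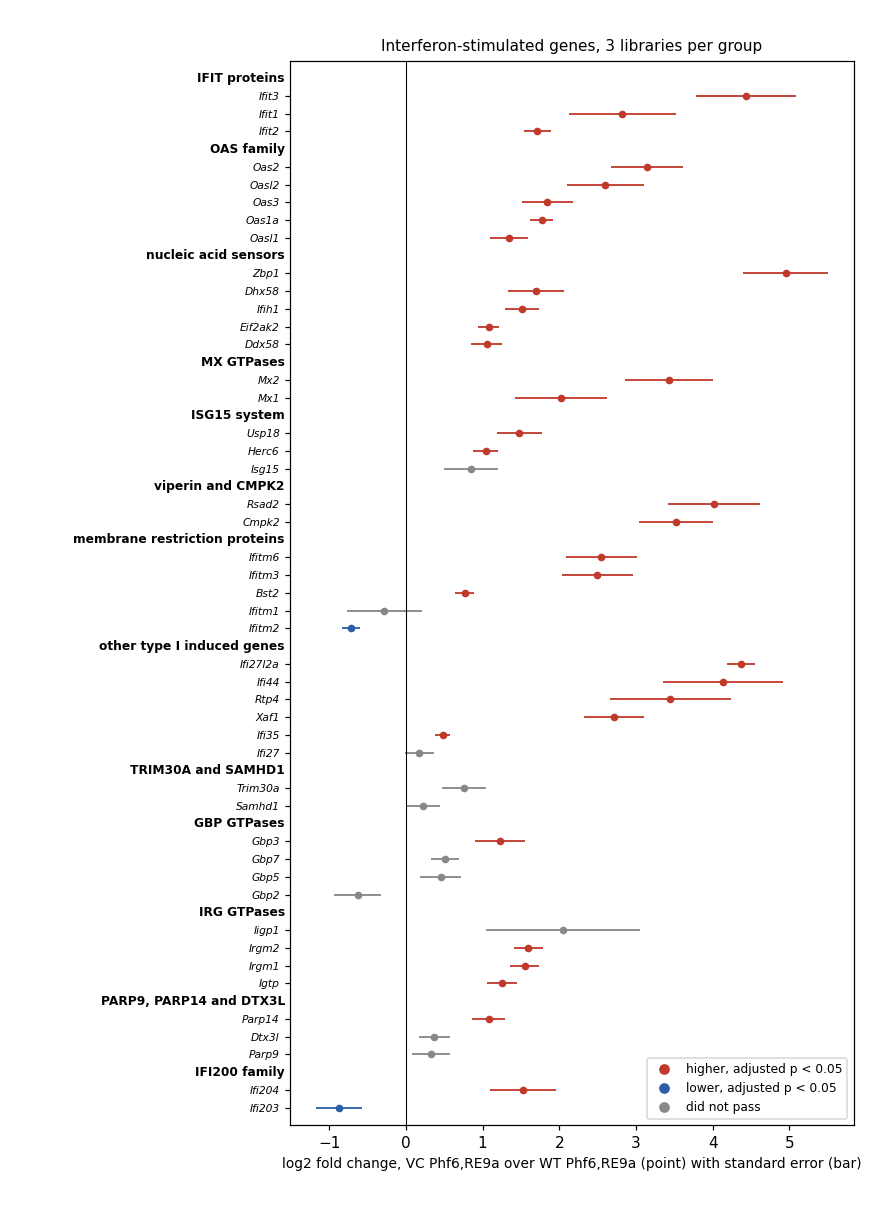
Log2 fold change, VC Phf6,RE9a over WT Phf6,RE9a, of the 46 genes by role group, with standard errors as bars and color by the call at an adjusted p under 0.05. The IFIT, OAS, sensor and MX genes and the pair *Rsad2* and *Cmpk2* lie wholly to the right of 0, while *Gbp5*, *Gbp7*, *Samhd1*, *Parp9*, *Dtx3l* and *Ifi27* lie near it.

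The large GTPases of the GBP and IRG families, some of which attack the vacuoles of intracellular parasites, are the members known for their strong response to type II interferon. Of the 4 GBP genes, all within 144031 bases of chromosome 3, *Gbp3* alone passed the threshold. It had 5.06, 13.2 and 7.20 CPM in *WT Phf6,RE9a* and 20.7, 16.9 and 22.0 CPM in *VC Phf6,RE9a* libraries (log2 fold change 1.23, standard error 0.33, adjusted p = 0.0188). The call of *Gbp3* was lost without *WT Phf6,RE9a* replicate 3 (adjusted p = 0.0568) and when *VC Phf6,RE9a* replicate 11 (0.0545) or 13 (0.0549) was left out. *Gbp7*, the most read of the family, had 96.8, 141 and 86.2 CPM in *WT Phf6,RE9a* and 147, 141 and 174 CPM in *VC Phf6,RE9a* libraries (log2 fold change 0.51, standard error 0.18, adjusted p = 0.0549). Here *WT Phf6,RE9a* replicate 2 was almost level with the lowest *VC Phf6,RE9a* library. *Gbp5* had a log2 fold change of 0.45 (adjusted p = 0.206) and *Gbp2* one of -0.63 (adjusted p = 0.132), which passed as lower without *WT Phf6,RE9a* replicate 3 (log2 fold change -0.89, adjusted p = 0.0286).

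Of the 4 IRG genes 3 were higher. *Irgm1*, a regulator of autophagy that also protects stem cells of the blood, had 35.6, 62.5 and 46.7 CPM in *WT Phf6,RE9a* and 141, 134 and 149 CPM in *VC Phf6,RE9a* libraries (log2 fold change 1.55, standard error 0.19, adjusted p = 0.000553). *Irgm2* had 8.63, 13.4 and 9.14 CPM in *WT Phf6,RE9a* and 31.2, 29.1 and 33.9 CPM in *VC Phf6,RE9a* libraries (log2 fold change 1.60, standard error 0.19, adjusted p = 0.000516). *Igtp*, which overlaps *Irgm2*, rose by 1.25 on the log2 scale. All 3 were above every *WT Phf6,RE9a* library in every *VC Phf6,RE9a* library. *Iigp1* had 0, 24 and 1 counts in *WT Phf6,RE9a* and 43, 31 and 43 counts in *VC Phf6,RE9a* libraries, and did not pass (adjusted p = 0.134). Without *WT Phf6,RE9a* replicate 2 it passed (adjusted p = 0.00110), on 0 and 1 counts in the remaining *WT Phf6,RE9a* libraries. Its place among the genes tested came through the *VC Phf6,RE9a* libraries.

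PARP14 and PARP9 are ADP-ribosyltransferases, and PARP9 works as a pair with the ubiquitin ligase DTX3L. *Parp14* had 90.6, 167 and 99.98 CPM in *WT Phf6,RE9a* and 263, 245 and 249 CPM in *VC Phf6,RE9a* libraries (log2 fold change 1.08, standard error 0.22, adjusted p = 0.00540). *Parp9* and *Dtx3l*, which share 458 exonic bases on opposite strands, overlapped between the groups, with log2 fold changes of 0.33 (adjusted p = 0.313) and 0.37 (adjusted p = 0.169). The IFI200 genes, whose products bind DNA in nucleus and cytosol, split. *Ifi203* had 9.997, 12.7 and 15.1 CPM in *WT Phf6,RE9a* and 9.80, 6.29 and 4.58 CPM in *VC Phf6,RE9a* libraries and was lower (log2 fold change -0.87, standard error 0.30, adjusted p = 0.0494). *Ifi204* had 1.43, 2.10 and 1.76 CPM in *WT Phf6,RE9a* and 8.44, 3.09 and 3.74 CPM in *VC Phf6,RE9a* libraries and was higher (log2 fold change 1.53, standard error 0.43, adjusted p = 0.0228). Both calls were weak. That of *Ifi203* was lost without *WT Phf6,RE9a* replicate 2 (adjusted p = 0.0836) or 3 (0.127) as well as without *VC Phf6,RE9a* replicate 12 (0.137) or 13 (0.124), and that of *Ifi204* without *WT Phf6,RE9a* replicate 1 (0.0733) or 3 (0.0574), as well as without *VC Phf6,RE9a* replicate 11 (0.0662).

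Levels of different genes were compared per length, in the FPKM that the authors deposited. In *WT Phf6,RE9a* cells *Ifitm2* had the highest mean level, with 72.9 to 88.4 FPKM. *Isg15* came next with 28.7 to 91.2 FPKM, a range that covered that of *Ifitm2* and was above it in replicate 2. *Bst2* (42.9 to 57.0 FPKM) and *Ifi27* (37.9 to 65.0 FPKM) followed and overlapped *Isg15* and each other. In *VC Phf6,RE9a* cells *Ifi27l2a* led with 620 to 828 FPKM, up from 27.1 to 40.5 FPKM in *WT Phf6,RE9a* cells. It was followed by *Oas2* (132 to 139 FPKM), *Isg15* (91.7 to 113 FPKM) and *Bst2* (85.6 to 88.8 FPKM), whose ranges did not overlap.

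The genes also differed among libraries of the same group. *WT Phf6,RE9a* replicate 2 was the highest of its group for 38 of the 46 genes (82.6%), where it was the highest for 35.9% of all genes tested. Its median difference from the mean of replicates 1 and 3 was 0.80 in log2 CPM over the 46 genes and -0.008 over all genes tested. *Rtp4* (0.909, 9.16 and 0.787 CPM) and *Ifit1* showed this most among genes with over 10 counts in each *WT Phf6,RE9a* library, at 10.8 and 7.38 times the mean of the other libraries. Without *WT Phf6,RE9a* replicate 2, 42 of the 46 genes were higher and 1 was lower, where 2870 of all genes were higher and 3166 lower. *Isg15* (adjusted p = 0.00536), *Ifi27* (0.00696), *Trim30a* (0.00111), *Samhd1* (0.00599), *Gbp5* (0.00657), *Gbp7* (0.00283), *Iigp1* (0.00110), *Parp9* (0.00118) and *Dtx3l* (0.000881) then passed, and *Ifi203* did not. *Iigp1* had 0 and 1 counts in the remaining *WT Phf6,RE9a* libraries, and passed the count filter through the *VC Phf6,RE9a* libraries. Leaving it out raised the fold change by over 1.5-fold in 11 of the 35 genes called with all libraries (*Ifit1*, *Ifit3*, *Oas2*, *Oasl2*, *Dhx58*, *Mx1*, *Mx2*, *Rsad2*, *Ifi44*, *Xaf1* and *Rtp4*), to log2 values of 5.50 for *Rtp4* and 3.91 for *Oas2*. Leaving out any other library moved 1 at most, *Zbp1*.

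**Figure D4:**
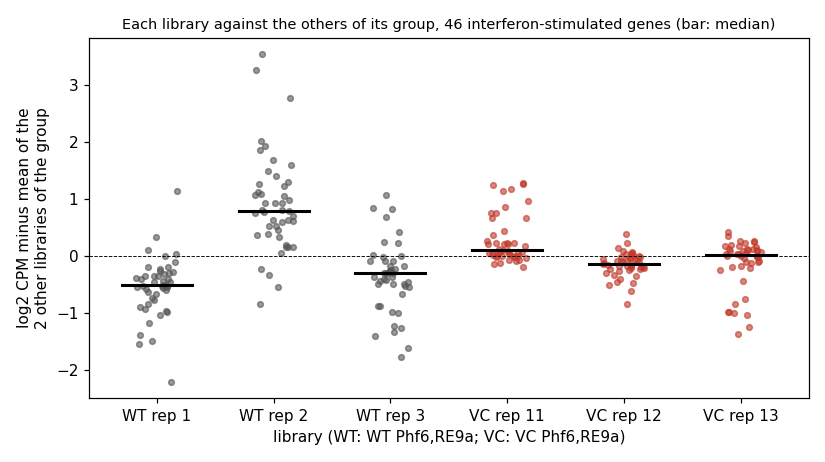
Each point is 1 of the 46 genes, plotted as its log2 CPM in a library minus the mean of the other libraries of the group, with the median as a bar. The points of WT Phf6,RE9a replicate 2 are mostly above 0 (median 0.80), those of replicates 1 and 3 mostly below, and the 3 VC Phf6,RE9a libraries have medians between -0.14 and 0.096.

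The *VC Phf6,RE9a* libraries were closer to each other. The highest was within 1.5-fold of the lowest for 34 of the 46 genes in *VC Phf6,RE9a* cells and for 7 in *WT Phf6,RE9a* cells, and the median ratio of highest to lowest was 1.21 and 1.98. Over all genes tested the libraries were within 1.5-fold for 74% in *VC Phf6,RE9a* cells, close to the share of the 46 genes. In *WT Phf6,RE9a* cells this held for 62.2% of all genes tested, well above the share of the 46 genes. The median ratios over all genes tested were 1.2 and 1.35. Over the 46 genes replicate 11 was the highest *VC Phf6,RE9a* library for 60.9% and replicate 13 the lowest for 32.6%. Over all genes tested these shares were 31.4% and 35.1%. In 9 genes, picked by their spread, the highest and lowest were over 2-fold apart among *VC Phf6,RE9a* libraries. Of these, 8 had replicate 11 as the highest and replicate 13 as the lowest (*Ifit3*, *Zbp1*, *Rsad2*, *Cmpk2*, *Ifitm1*, *Ifitm3*, *Ifitm6* and *Ifi203*). The order from replicate 11 over 12 to 13 was also that of all 8 neutrophil markers, with replicate 11 at 3.60 to 4.74 times replicate 13, where *Ifitm6* was at 3.37, *Ifitm1* at 3.29 and *Ifitm3* at 2.77 times. *Oas2* was at 1.06 times between its highest and lowest *VC Phf6,RE9a* library, *Irgm1* at 1.11 and *Ifi27l2a* at 1.35. The same order was seen in 25 of the 56 markers of the other cell types, but in 0 of 6 erythroid markers. Among the 25, replicate 11 was at 4.87 times replicate 13 for *Siglech*, 5.62 for *Pax5*, 2.54 for *Ly6c2* and 3.12 for *Ptprc*. The part of any cell type in these genes was not tested.

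Many of the genes lie side by side, in 11 clusters (gaps of at most 500 kb) that hold 29 of the 46 genes. In 6 clusters every member was higher, among them *Ifit2*, *Ifit3* and *Ifit1* on chromosome 19, *Oas2*, *Oas3* and *Oas1a* on chromosome 5, and *Igtp* and *Irgm2* on chromosome 11. In the others neighbours differed in their calls, as *Ifitm2* and *Ifitm3* on chromosome 7 and *Ifi204* and *Ifi203* on chromosome 1. Calls in opposite directions were seen in these 2 clusters of the 11.

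Among the genes that make and relay the interferon signal, calls went both ways. A list of 49 symbols held ligands, receptors, kinases, transcription factors, inhibitors and sensors, of which 47 were in the table and 36 had enough counts. The symbols not found, *Sting1* and *Cgas*, are other names of *Tmem173* and *Mb21d1*, which are on the list and were found. Of the 36 tested, 7 were higher in *VC Phf6,RE9a* cells, 8 lower and 21 did not pass. The shares higher and lower were 19.4% and 22.2%, close to the 21.5% and 22.7% of all genes. The median log2 fold change was 0.010. None of the 9 listed interferon genes had enough counts to be tested. *Ifnb1* had 0, 0 and 0 counts in *WT Phf6,RE9a* and 1, 0 and 0 counts in *VC Phf6,RE9a* libraries. *Ifna1*, *Ifna2* and *Ifna4* had 5, 5 and 3 counts in *WT Phf6,RE9a* replicate 2 and 0 in the other *WT Phf6,RE9a* libraries, and at most 2 counts in any *VC Phf6,RE9a* library. *Ifng* had 0, 0 and 2 counts in *WT Phf6,RE9a* and 4, 4 and 2 counts in *VC Phf6,RE9a* libraries. *Trex1* is listed at 0 in all 6 libraries.

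Among receptors *Ifnlr1*, the specific chain of the type III receptor, had 0.779, 0.543 and 0.666 CPM in *WT Phf6,RE9a* and 26.9, 23.1 and 23.1 CPM in *VC Phf6,RE9a* libraries (log2 fold change 5.18, standard error 0.21, adjusted p = 1.87e-05). *Ifngr1* had 2.40, 3.60 and 5.33 CPM in *WT Phf6,RE9a* and 12.99, 8.16 and 5.59 CPM in *VC Phf6,RE9a* libraries (log2 fold change 1.24, standard error 0.40, adjusted p = 0.0370), and lost the call in 4 of the 6 fits without 1 library, with an adjusted p of 0.134 at the most, without *VC Phf6,RE9a* replicate 11. The chains of the type I receptor did not pass, with log2 fold changes of 0.071 for *Ifnar1* (adjusted p = 0.649) and 0.29 for *Ifnar2* (adjusted p = 0.0593). All 3 receptor kinases were lower. *Jak2* fell from 272 ± 27.3 to 194 ± 11.8 CPM (SD, n = 3; log2 fold change -0.49, adjusted p = 0.00618), *Tyk2* from 131 ± 16.3 to 96.2 ± 2.70 CPM (log2 fold change -0.44, adjusted p = 0.0112) and *Jak1* from 491 ± 27.4 to 386 ± 24.5 CPM (log2 fold change -0.35, adjusted p = 0.0186). *Jak1* lost the call with total-count scaling (adjusted p = 0.117) and when *VC Phf6,RE9a* replicate 11 (0.0891) or 12 (0.0770) was left out.

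*Stat2*, a partner of IRF9 in the type I response, had 56.4, 79.2 and 55.7 CPM in *WT Phf6,RE9a* and 74.5, 68.2 and 68.6 CPM in *VC Phf6,RE9a* libraries. The groups overlapped (log2 fold change 0.14, standard error 0.14, adjusted p = 0.454). *Irf9* had a log2 fold change of 0.42 (adjusted p = 0.0841). Without *WT Phf6,RE9a* replicate 2 both passed as higher, at 0.32 (adjusted p = 0.0185) and 0.65 (0.00125). *Irf7*, the master regulator of interferon alpha genes, had 26.6, 89.7 and 21.6 CPM in *WT Phf6,RE9a* and 147, 129 and 143 CPM in *VC Phf6,RE9a* libraries (log2 fold change 1.61, standard error 0.49, adjusted p = 0.0300). Its *WT Phf6,RE9a* replicate 2 stood above the other *WT Phf6,RE9a* libraries, and in 5 of the 6 fits without 1 library the call was lost (adjusted p from 0.0610 to 0.0873), with *WT Phf6,RE9a* replicate 2 as the exception. *Irf8*, a regulator of monocyte and dendritic cell fate, rose by 1.77 (adjusted p = 0.00467) and *Stat3* fell by 0.71 (adjusted p = 0.000505) on the log2 scale. *Irf5* fell by 1.25 (adjusted p = 0.0122).

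Of the inhibitors, *Socs1*, which blocks JAK kinases, had 55.9, 65.4 and 47.0 CPM in *WT Phf6,RE9a* and 17.2, 17.3 and 23.5 CPM in *VC Phf6,RE9a* libraries (log2 fold change -1.53, standard error 0.17, adjusted p = 0.000422). *Ptpn2*, a phosphatase that acts on JAK1, had 195, 167 and 183 CPM in *WT Phf6,RE9a* and 70.6, 89.6 and 81.0 CPM in *VC Phf6,RE9a* libraries (log2 fold change -1.18, standard error 0.11, adjusted p = 0.000199). Both were lower in every *VC Phf6,RE9a* library than in any *WT Phf6,RE9a* library. *Usp18*, the inhibitor described above, went the other way. Among adaptors, *Mavs*, through which RIG-I and MDA5 signal, had 188, 193 and 232 CPM in *WT Phf6,RE9a* and 438, 444 and 436 CPM in *VC Phf6,RE9a* libraries (log2 fold change 1.11, standard error 0.10, adjusted p = 0.000191). *Mb21d1*, encoding the DNA sensor cGAS, rose by 0.60 (adjusted p = 0.00710), and its adaptor *Tmem173*, encoding STING, fell by 0.94 on the log2 scale (adjusted p = 0.00745).

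**Figure D5:**
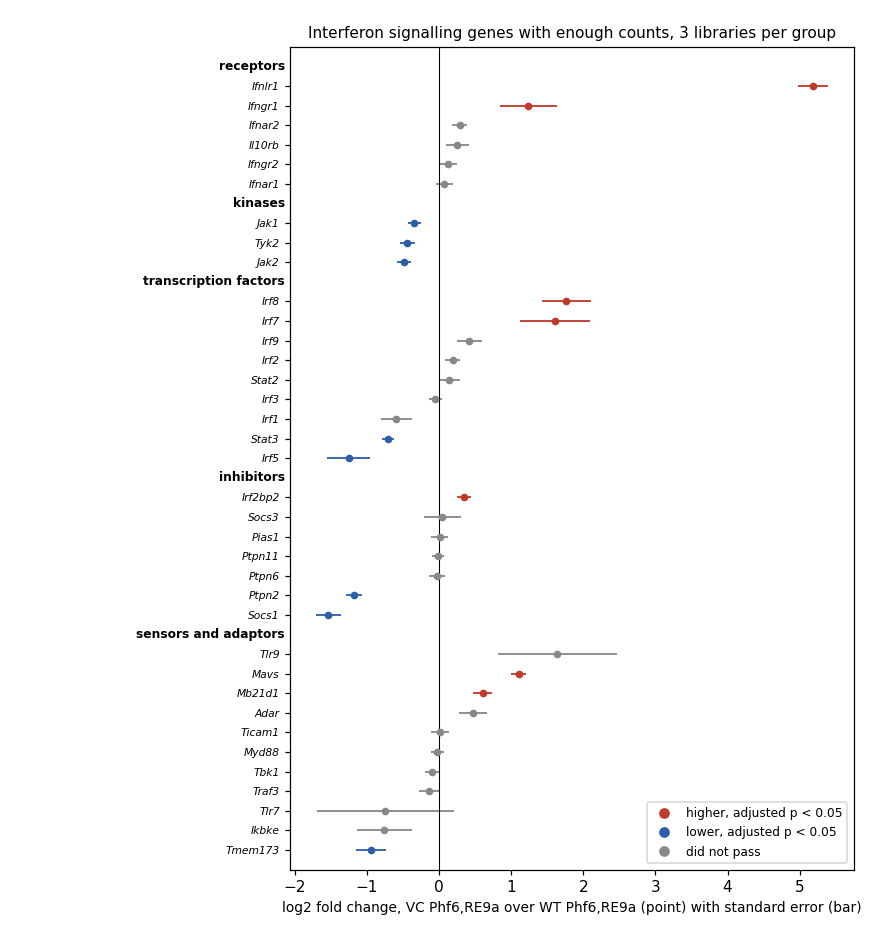
Log2 fold change, VC Phf6,RE9a over WT Phf6,RE9a, of the 36 interferon signaling genes with enough counts, with standard errors as bars and color by the call. Points lie on both sides of 0, with *Ifnlr1* at 5.18, the 3 kinases between -0.49 and -0.35 and *Socs1* at -1.53.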

How the data were processed

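RNA of GFP+ bone marrow leukemia cells was compared between 3 *WT Phf6,RE9a* and 3 *VC Phf6,RE9a* libraries, grouped by their titles and genotype. The authors deposited read counts per Ensembl gene without normalization, and FPKM values per gene length and scaled library size. The authors' deposited comparison (mean normalized counts, a signal, log2 fold changes and DESeq2 p-values) was not used. The submitters' processing notes name Bowtie 0.12.0 and mm8, and the counting tool and strandedness are not given in the sources used here. Since 98.33% of the genes found in GENCODE M21 (GRCm38) had the same start and end there, coordinates are given as deposited, on GRCm38. Between libraries of 1 group the chi-square per gene was 11.8 to 15.4 for *VC Phf6,RE9a* and 32.5 to 46.4 for *WT Phf6,RE9a* pairs, above sampling noise.

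In R 4.3.3, genes passing filterByExpr of edgeR 4.0.16 were scaled by TMM and compared by its quasi-likelihood test, and p-values of 14169 genes were adjusted by Benjamini-Hochberg (threshold 0.05). Standard errors are log2 fold changes over the root of F. On counts simulated from these libraries (13878 genes tested), 200 genes were changed, up or down at random. Of these, 55.8% of 2-fold and 84% of 4-fold changes were recovered, with 8 false calls. In the data 44.2% of all genes tested were called, far more than were changed there, so these rates need not hold for the data. Alternatives were DESeq2 1.42.0, RLE, upper quartile and total-count scaling, other count filters, limma 3.58.1 on log2(FPKM + 1) and log2(FPKM + 0.1), and each library left out. Those for single signaling genes were added after their values were seen. Members and lists were chosen with earlier results of these data known. In each role group, values per library are given for the gene with the highest mean CPM and the 2 called genes with the smallest p, and for other genes named after their values were seen. Of the signaling list, the 2 smallest p of each class and *Stat2*, *Irf7* and *Irf9* were set to be named, and others were named after their values were seen. A further gene set for that list is not reported here and was left out of its counts. With 3 against 3 libraries an exact 2-sided permutation test of 1 gene cannot go below p = 0.1. Shared sequence was counted in 100-base windows of the longest coding transcript. Exact intervals are Clopper-Pearson. Python 3.11.15 with matplotlib 3.10.9 made the figures.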

Additional observations from a re-analysis of the deposited data

How the results depend on the processing

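The number of interferon-stimulated genes that were higher ran from 27, with at least 10 counts in every library (39 genes tested), to 36 with DESeq2, with no count filter and with total counts, and was 29 at an adjusted p under 0.01. Over all genes 2565 were higher with at least 10 counts in every library, 3090 with DESeq2, 3046 with no count filter and 4048 with total counts. The number over all genes at an adjusted p under 0.01 was not counted. With single libraries left out, the number of interferon-stimulated genes that were higher ran from 30 to 42. Over all genes 2179 to 3132 were higher and 2511 to 3338 lower in those fits. The number that were lower was 1 with upper quartile factors, total counts, limma on log2(FPKM + 0.1), at least 10 counts in every library and an adjusted p under 0.01, 0 at a minimum of 2-fold, and 1 to 2 with single libraries left out. The median log2 fold change was 1.04 with limma on log2(FPKM + 1), and 1.36 to 1.79 with single libraries left out. The number of signaling genes that were higher was 4 to 9 with single libraries left out, 4 without *VC Phf6,RE9a* replicate 11 or 12. The direction of *Ifitm1* turned without *WT Phf6,RE9a* replicate 1 (0.21) and with *VC Phf6,RE9a* replicate 13 left out (0.043), in a range from -0.81 with single libraries left out. *Isg15*, *Trim30a* and *Gbp7* passed as higher with DESeq2 (adjusted p = 0.0299, 0.0218 and 0.0334), with no count filter and with total counts, *Iigp1* passed with limma on log2(FPKM + 1) (0.0326) and log2(FPKM + 0.1) (0.0407), *Ifi204* no longer passed with the former (0.0503), and *Ifi203* no longer passed with upper quartile factors (0.0551), total counts (0.0865), at least 10 counts in every library (0.0511) and limma on log2(FPKM + 0.1) (0.0530). The causes of these differences were not tested. No paired analysis was possible because the groups share no replicate number. Genes under about 10 counts in *WT Phf6,RE9a* libraries, such as *Zbp1*, *Ifit3* and *Ifi44*, are limited by depth. With limma on log2(FPKM + 1) the log2 fold changes of *Zbp1*, *Ifit3* and *Ifi44* were 0.93, 1.58 and 0.18. The 1 added there is large beside their mean levels, 0.029, 0.11 and 0.0073 FPKM in *WT Phf6,RE9a* and 0.99, 2.47 and 0.14 FPKM in *VC Phf6,RE9a* cells.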

Other observations

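Relatives of these genes outside the list were picked by family names in their symbols, including the IRG gene name *Tgtp* and the IFI200 gene name *Mndal*, after the values above were seen, so they are a description and not a further test. Of 40 such genes 20 had enough counts, and by edgeR's adjusted p 15 of these were higher in *VC Phf6,RE9a* cells, 0 were lower and 5 did not pass, where 21.5% of all genes tested were higher and 22.7% lower. Of the 20 tested, 7 had at most 10 counts in every *WT Phf6,RE9a* library and so passed the count filter through the *VC Phf6,RE9a* libraries, which leaves the count with no weight of its own. None of the 20 was lower at an unadjusted p under 0.05. Among those not tested, *Ifi203-ps* had 6, 17 and 28 counts in *WT Phf6,RE9a* and 3, 3 and 1 counts in *VC Phf6,RE9a* libraries. *Ifit3b*, with *WT Phf6,RE9a* counts of 0, 1 and 0, rose by 5.74 on the log2 scale (adjusted p = 0.00115). *Gbp9* rose by 4.24 (adjusted p = 0.000181), *Trim30b* rose by 3.74 (adjusted p = 7.80e-05) and *Ifi27l2b* rose by 3.28 (adjusted p = 8.92e-05). In the IFI200 family 5 of 6 tested relatives were higher, among them *Mndal* and *Ifi211*, while *Ifi203* of the list was lower and the untested *Ifi203-ps* had fewer counts in every *VC Phf6,RE9a* library. *Oas1g*, which shares windows with *Oas1a*, rose by 2.28 (adjusted p = 9.54e-05). *Oas1c*, *Tgtp2*, *Trim30d*, *Ifi207* and *Ifitm5* did not pass. Reads can be shared within these families, so single members are uncertain.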
